A study of Mus musculus with 6 samples.

Results

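The p53 response genes examined here are 34 genes of the p53 pathway, DNA damage handling and programmed cell death, chosen as a named list and matched by exact symbol to probe sets that carry a single gene symbol. A probe set is a group of short probes on the array that reads 1 transcript region. Each gene was represented by its brightest probe set over the 6 arrays. By this rule 32 of the 34 genes were measured, of 18193 genes in the whole table, and Trp53 and Bax were not analysed here. Of the 32 genes, 31 had a mean log2 level of at least 6 in both groups, a working limit for a signal above the dim range of the array. Tnfrsf10b was dim in both groups.

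The tested cultures were mouse mesenchymal stem cells irradiated for 12 h with pulsed broadband terahertz radiation, centred near 10 THz, delivered as 35 fs pulses at 1 kHz with a mean power of 1 mW on each cm2. Control cultures were the same cells, left unirradiated beside them, and both stood at 26 to 27 °C. All cultures, controls included, were kept in adipogenic medium, which makes such cells turn into fat cells and was added again 48 h before irradiation. It held dexamethasone and Roziglitazone at 1 µM each, 100 µM of 3-Isobutyl-1-methylxanthine and insulin at 5 µg/ml. Each of 3 independent experiments gave 1 irradiated and 1 control array. The cells were a commercial preparation, and for the donor animals no strain, sex or age is given in the sources used here.

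Array medians lay between 4.74 and 4.80 and arrays correlated between 0.9889 and 0.9959. Of 9 measured stromal markers 8 lay above the level of 6, and Thy1, a defining stromal surface marker, was dim at 4.07 in irradiated and 4.11 in control cultures. Of these 8 markers, 2 were higher at an unadjusted p under 0.05, Vcam1 by 0.49 ± 0.13 (SE) and Nt5e by 0.24 ± 0.10 (SE). Lower at that p was 1, Pdgfrb, by -0.28 ± 0.10 (SE). Of all genes above the level of 6, 4.57% were higher and 6.28% lower at that p. These are few markers, and nothing is read from their count. All 10 macrophage markers also lay above that level, so these transcripts were measured in both groups. All 10 were lower on average in irradiated cultures, beside 4521 of all 9302 genes above the level of 6. In all 3 experiments 4 of the 10 were lower, beside 18.7% of all genes at that level. The medians of the 10 were -0.23, 0.08 and -0.11 in the 3 experiments, so experiment 2 went the other way. Cd14, which binds bacterial lipopolysaccharide, had differences of -0.84, -0.17 and -1.18, with a mean of -0.73 ± 0.19 (SE), and the other 9 had means from -0.19 to -0.05. The summed linear signal of the 10 ran from 42500 to 59400 in irradiated and from 48000 to 67100 in control cultures. The part of these marker differences in the values below was not tested, and fewer cells of a type and less RNA per cell cannot be told apart in bulk RNA. All 6 measured fat cell markers lay above the dim level with a median difference of -0.01. Lymphoid and endothelial markers were dim throughout, and 1 of 4 epithelial markers was not.

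The protein p53 is a transcription factor that is held at low levels by the ubiquitin ligase Mdm2 and its partner Mdm4. DNA breaks and other stresses free p53 from this hold. It then switches on genes that stop the cell cycle, such as Cdkn1a, and genes that repair DNA, such as Xpc. It also switches on genes that start cell death, such as Bbc3 and Pmaip1. Cell death is decided at mitochondria by the Bcl2 family, in which Bcl2, Bcl2l1 and Mcl1 protect the cell and Bbc3, Pmaip1 and Bcl2l11 oppose them, and at the cell surface by receptors such as Fas.

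The p53 protein binds DNA as a pair of 10-base half-sites. Windows of 300 bases around annotated gene starts, 250 before and 50 after, were searched for exact matches to the p53 half-site consensus, which reads the same on both strands. The sequences are shown because they tell apart, among searched genes, those with the letters p53 recognises close to a start from the rest. RefSeq windows (GRCm38.p6) were found for 25 of the 32 measured genes, and 8 of the 25 (32%) held at least 1 match, where 9.55% of 27025 genes with windows did. No window was found for Pmaip1, Xpc, Perp, Zmat3, Trp53inp1, Tnfrsf10b and Ddb2, so these genes were not searched. The matches are a description of these letters and not of binding. Sesn1 and Polk, like Cdkn1a, held a match in 1 of 2 windows. Each stretch is written 5′ to 3′ on the gene's strand with the half-sites in capitals.
Cdkn1a, chr17:29090891-29090952, plus strand, in the window of 1 of its 2 annotated starts: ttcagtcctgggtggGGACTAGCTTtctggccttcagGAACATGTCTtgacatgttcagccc
Mdm2, chr10:117710920-117710959, minus strand: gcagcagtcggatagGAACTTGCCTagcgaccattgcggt
Ccng1, chr11:40755447-40755486, minus strand: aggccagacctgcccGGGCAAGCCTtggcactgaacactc
Gadd45a, chr6:67037423-67037462, minus strand: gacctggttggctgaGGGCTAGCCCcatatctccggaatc
Sesn1, chr10:41887251-41887290, plus strand: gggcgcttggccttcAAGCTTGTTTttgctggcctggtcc
Ei24, chr9:36797320-36797359, minus strand: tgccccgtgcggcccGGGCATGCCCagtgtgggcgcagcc
Aen, chr7:78895922-78895961, plus strand: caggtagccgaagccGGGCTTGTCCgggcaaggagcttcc
Polk, chr13:96519394-96519433, minus strand: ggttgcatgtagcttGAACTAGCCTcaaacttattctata

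The comparison asks whether these genes differ between irradiated cells and the control culture of the same experiment. None of the 32 genes passed the adjusted threshold. The classic p53 targets Cdkn1a, Mdm2, Ccng1 and Phlda3 lay within 0.04 of 0 on the log2 scale, each with a 95% interval that stayed within 0.29 of 0. The death receptor gene Fas was 1.36-fold higher in irradiated cells, the RNA-binding protein gene Zmat3 1.21-fold higher and the p53 cofactor gene Trp53inp1 1.18-fold higher. The kinase gene Plk3 was 1.35-fold lower and the survival gene Bcl2l1 1.27-fold lower. These 5 genes are named for an unadjusted p under 0.05 in the paired fit given below, which favours genes of 1 sign. Each had 1 sign in all 3 experiments, beside 37.3% of all genes above the dim level, and this adds no support. None of their adjusted p values was below 0.531.

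Values are log2 expression as deposited, and differences are irradiated minus control, with standard errors (SE) from a limma fit that pairs the arrays of each experiment and adjusts p over 45037 probe sets. Of these probe sets 0 (0%) passed an adjusted p of 0.05, where 3631 had an unadjusted p under 0.05. With the experiment as a random block 2 probe sets passed, neither of them of a gene described here. Among the 31 genes above the dim level, 4 were higher at an unadjusted p under 0.05 (12.9%), where 4.57% of all 9302 genes at that level were, and 2 were lower (6.45%), where 6.28% were. The share lower was therefore near the background, and the share higher rests on 4 genes. Bcl2l11 is counted among them by its brightest probe set, although its probe sets disagree, as given below. With the mean of each gene's probe sets Fas and Zmat3 were the 2 higher genes left and Plk3 and Bcl2l1 the 2 lower, while Trp53inp1, at 0.11, was not among them. Of the 4 higher genes, Fas alone stayed under 0.05 in the fit without the replicate block. With an experiment left out, Fas and Plk3 stayed under 0.05 each time, Bcl2l1 reached 0.0525 without experiment 1, Zmat3 stayed under it only without experiment 3, and Trp53inp1 and Bcl2l11 exceeded it each time. Higher in all 3 experiments were 7 of the 31 (22.6%), beside 18.6% of all genes at that level. Lower in all 3 were 2 (6.45%), beside 18.7%. Every irradiated array lay above every control array for 1 gene, Trp53inp1 (3.23%, beside 5.34% of all genes), and below for 0 genes (beside 7.12%). The median difference of the 31 genes was 0.08, beside 0.00 over all genes at that level.

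**Figure D1:**
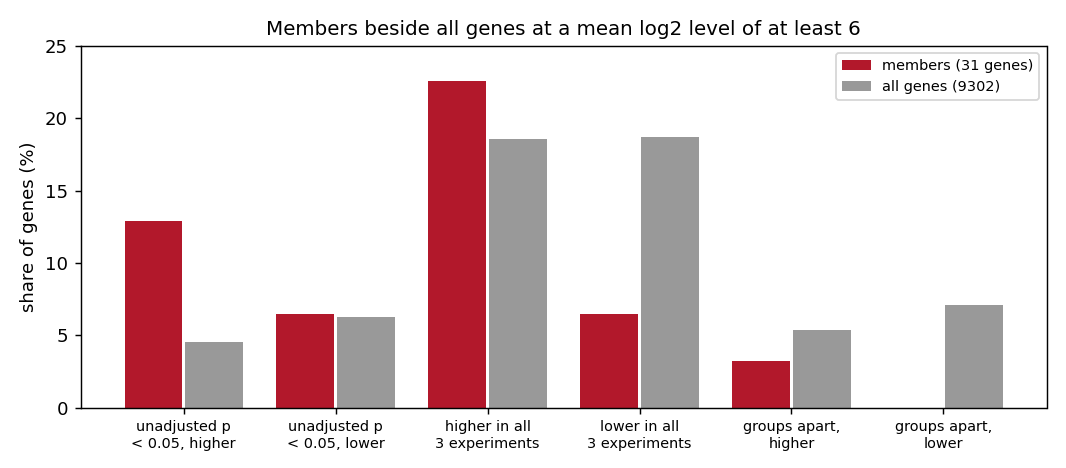
Share of genes, in percent, that met each of 6 descriptions, for the 31 members above the dim level (red, left bars) and for all 9302 genes above it (grey, right bars). The members' bar is the taller for higher values at an unadjusted p under 0.05, 12.9% against 4.57%, and the shorter for lower values in all 3 experiments, 6.45% against 18.7%.

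In the feedback loop around p53, 2 of the 4 genes had a positive and 2 a negative mean difference. Mdm2, the ligase that marks p53 for destruction and is itself a p53 target, read 11.79, 11.62 and 11.57 in irradiated cultures, against 11.90, 11.70 and 11.46 in controls. The arrays of both groups overlapped, and the difference was -0.03 ± 0.10 (SE), with a 95% interval from -0.27 to 0.21. Its second bright probe set differed by 0.01 ± 0.10 (SE), and a dim one by 0.40 ± 0.12 (SE). Ccng1, a cyclin G gene that p53 induces strongly, read 12.69, 12.19 and 12.28 in irradiated cultures and 12.65, 12.40 and 12.21 in controls. It was higher in irradiated cells in experiments 1 and 3 and lower in experiment 2, with a mean difference of -0.03 ± 0.11 (SE). Mdm4, the partner of Mdm2, differed by 0.07, 0.25 and -0.23 in the 3 experiments.

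Trp53inp1, a p53-induced nuclear protein that assists p53 and takes part in autophagy, stood apart from these. It read 12.06, 11.91 and 11.90 in irradiated cultures, against 11.87, 11.68 and 11.59 in controls. The lowest irradiated array lay just above the highest control array. The difference was 0.24 ± 0.09 (SE), with an adjusted p of 0.601, and was 0.21 to 0.27 with any experiment left out. A second probe set of the gene was dim and differed by -0.02 ± 0.10 (SE).

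Among the targets that halt growth, Cdkn1a, which encodes the cyclin-dependent kinase inhibitor p21, read 12.29, 12.00 and 12.22 in irradiated cultures and 12.29, 12.15 and 12.20 in controls. The experiments gave differences of 0.00, -0.15 and 0.02, and its second probe set differed by 0.04 ± 0.10 (SE). Of the half-sites shown above, 2 lie in a window of this gene. Phlda3, a repressor of Akt signalling that p53 induces, differed by -0.01 ± 0.10 (SE). Plk2, a kinase of the Polo family, differed by 0.12, 0.00 and 0.36 in the 3 experiments. The mean was 0.16, or 0.06 when experiment 3 was left out.

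Zmat3, a zinc finger RNA-binding protein gene and a direct p53 target in mice, read 10.60, 10.25 and 10.13 in irradiated cultures, against 10.36, 9.95 and 9.84 in controls. Each irradiated array exceeded its own control by nearly the same step, 0.24, 0.30 and 0.29, although the groups overlapped across experiments. The difference was 0.28 ± 0.09 (SE), with an adjusted p of 0.575. Plk3, a Polo family kinase that responds to stress, read 7.46, 7.01 and 7.03 in irradiated cultures, against 7.74, 7.35 and 7.70 in controls. It was lower in each experiment, by -0.28, -0.34 and -0.67, and its difference of -0.43 ± 0.11 (SE) was the lowest of the 32 genes (adjusted p = 0.538). Plk3 and Plk2, both Polo kinase genes, thus had mean differences of opposite sign, and the gap between them was not tested.

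**Figure D2:**
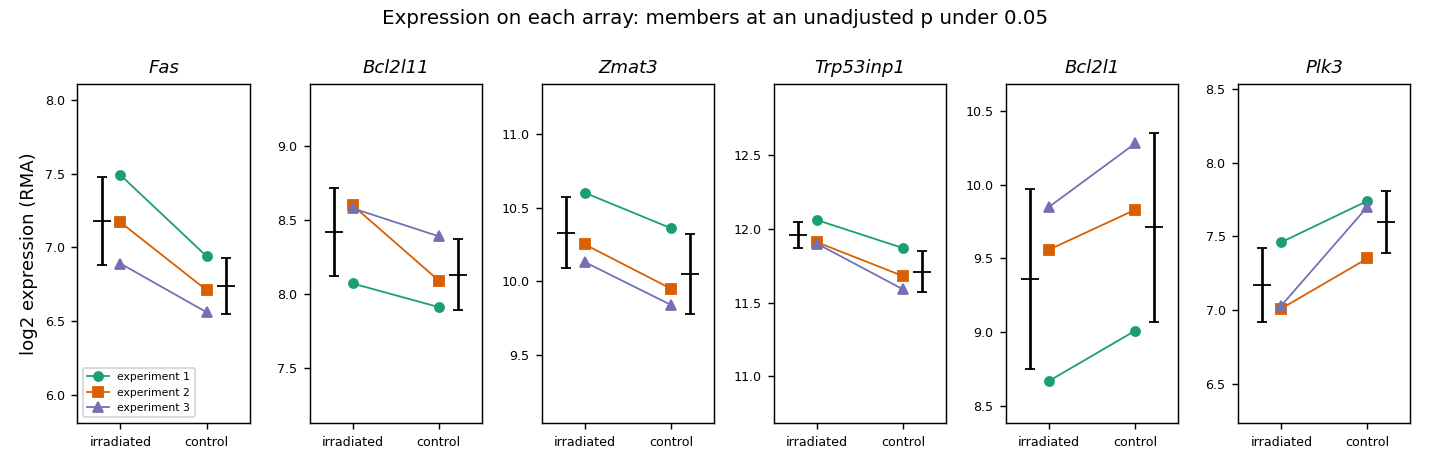
Log2 expression on each array for the 6 genes with an unadjusted p under 0.05, irradiated left and control right, with a line joining the arrays of 1 experiment and bars for the mean ± SD of each group (n = 3). All panels span the same number of log2 units, and the lines of a gene slope the same way in each experiment while the experiments lie at different heights.

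The Gadd45 genes, which encode small stress sensors that bind p21 and stress kinases, did not differ together. Gadd45a read 10.07, 10.09 and 11.10 in irradiated cultures, against 9.93, 10.27 and 10.36 in controls. The irradiated array of experiment 3 stood above all others, and the difference of 0.23 ± 0.18 (SE) became -0.02 without experiment 3. Gadd45b read 9.23, 9.23 and 9.06 in irradiated cultures and 9.43, 9.17 and 9.59 in controls, a difference of -0.22 ± 0.13 (SE) that was -0.07 without experiment 3. All 3 of its probe sets had a negative mean. The third, near the dim level at 5.86 in irradiated and 6.22 in control cultures, was lower in all 3 experiments, by -0.36, -0.21 and -0.49. Gadd45g differed by 0.29, 0.01 and 0.48 in the 3 experiments. The mean was 0.26, or 0.15 when experiment 3 was left out. Btg2, an antiproliferative gene of the BTG family, followed the pattern of Gadd45a, with differences of 0.11, -0.02 and 0.54 and a mean of 0.21 that was 0.04 without experiment 3.

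Sesn1, a sestrin that restrains mTORC1 signalling, differed by -0.14 ± 0.13 (SE) on its brightest probe set, with differences of -0.02, 0.06 and -0.47, and by 0.02 without experiment 3. All 4 of its probe sets had negative means, from -0.36 to -0.13, and the one at -0.13 was dim, at 3.42 in irradiated and 3.55 in control cultures.

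In the Bcl2 family, Bcl2l1, which encodes the survival protein Bcl-xL, was the 1 gene of 7 that was lower in all 3 experiments. It read 8.67, 9.56 and 9.85 in irradiated cultures, against 9.01, 9.83 and 10.28 in controls. Levels spanned more than 1 log2 unit between experiments in both groups, and within each experiment the irradiated array was the lower, by -0.34, -0.27 and -0.43. The difference was -0.35 ± 0.10 (SE), 1.27-fold lower, with an adjusted p of 0.538. All 4 of its probe sets had negative means, -0.35, -0.34, -0.22 and -0.17, and 3 of the 4 were lower in all 3 experiments. The last 2 of these were dim, at 4.92 and 3.15 in irradiated and 5.14 and 3.32 in control cultures. The second lay near the limit, at 5.92 in irradiated and 6.26 in control cultures. The unadjusted p of 0.00987 depends on the pairing, and was 0.374 without the replicate block.

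Bcl2l11, which encodes the death-promoting protein Bim, gave probe sets that disagreed. The brightest read 8.07, 8.60 and 8.58 in irradiated cultures, against 7.91, 8.09 and 8.39 in controls, and was higher in all 3 experiments with a difference of 0.29 ± 0.11 (SE; adjusted p = 0.600). The second brightest also was higher in all 3, by 0.27 ± 0.12 (SE). The other three were lower in all 3 experiments, by -0.28 ± 0.12 (SE), -0.22 ± 0.10 (SE) and, for a dim one, -0.72 ± 0.13 (SE). That dim probe set read 4.10, 4.34 and 4.20 in irradiated cultures and 4.93, 4.74 and 5.12 in controls. Bcl2l11 is known to give several splice forms, but no probe sequence was used here, so which transcripts each probe set reads was not tested. The mean over its 5 probe sets was -0.13, opposite in sign to the brightest, and no direction is given for the gene.

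**Figure D3:**
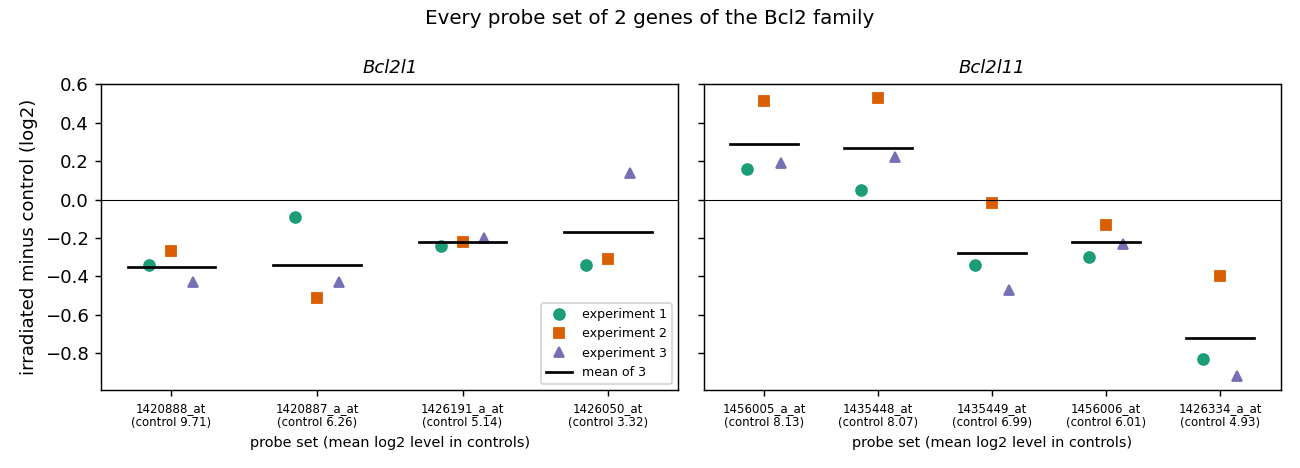
Log2 difference, irradiated minus control, in each of the 3 experiments (symbols) and on average (black lines) for every probe set of Bcl2l1 and Bcl2l11, ordered from the brightest, with the mean log2 level in controls under each name. All 4 means of Bcl2l1 are negative, while Bcl2l11 has 2 positive and 3 negative means.

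The BH3-only gene Bbc3, which encodes Puma, a direct p53 target that blocks the survival proteins, had the widest spread of paired differences in the family, 0.21, -0.31 and 1.07. It read 6.98, 6.85 and 7.86 in irradiated cultures, against 6.77, 7.16 and 6.79 in controls. The irradiated array of experiment 3 exceeded all others, experiment 2 went the other way by -0.31, and the mean of 0.32 ± 0.24 (SE) became -0.05 without experiment 3. Pmaip1, which encodes the BH3-only protein Noxa, read 8.35, 8.22 and 8.29 in irradiated cultures and 8.30, 8.14 and 7.91 in controls. It was higher in each experiment, by 0.05, 0.08 and 0.38, with a mean of 0.17 ± 0.11 (SE) that was 0.07 without experiment 3.

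The means of the other genes of the family lay close to 0. Mcl1, a short-lived survival protein gene, read 12.54, 12.70 and 12.88 in irradiated cultures and 12.61, 12.75 and 12.68 in controls. Its 6 probe sets, all bright, had means between -0.02 and 0.08. Bcl2 differed by 0.08 ± 0.11 (SE), and Bak1, a pore-forming death effector, by -0.01 ± 0.11 (SE) or 0.01 after quantile normalization.

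Of the death receptors, Fas, which triggers apoptosis when bound by its ligand and is a p53 target, read 7.49, 7.17 and 6.89 in irradiated cultures, against 6.94, 6.71 and 6.56 in controls. Each irradiated array exceeded its control, by 0.55, 0.46 and 0.33, though the lowest irradiated array lay just below the highest control array. Fas averaged 7.18 ± 0.30 in irradiated and 6.74 ± 0.19 in control cultures (SD, n = 3 each), a difference of 0.45 ± 0.10 (SE), the highest of the 32 genes, with a 95% interval from 0.21 to 0.69 and an adjusted p of 0.531. With any experiment left out it was 0.40 to 0.51. Fas has a single probe set here. Its RefSeq window held no half-site, but bases further than 50 after the start were not searched, so nothing is read from this. Tnfrsf10b, the mouse receptor for the death ligand Trail, was dim, and its differences of -0.09, -0.54 and 0.46 are not interpretable at that level.

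Downstream of the receptors, Casp8, the initiator caspase of that route, read 9.14, 9.22 and 9.00 in irradiated cultures and 8.97, 8.73 and 9.00 in controls. It was higher in experiments 1 and 2 and equal in experiment 3, a mean of 0.22 ± 0.12 (SE) that was 0.09 without experiment 2. Apaf1, the scaffold on which mitochondrial signals activate caspases, read 8.81, 8.79 and 8.71 in irradiated cultures and 8.68, 8.57 and 8.85 in controls, a difference of 0.07 ± 0.11 (SE) on its bright probe set. Ei24, a p53-induced membrane protein gene of the endoplasmic reticulum, differed by 0.11, 0.07 and 0.12, a small step in 1 direction with a mean of 0.10 ± 0.09 (SE). Aen, an exonuclease induced by p53, differed by 0.16, -0.05 and 0.33, a mean of 0.15 ± 0.11 (SE) that was 0.06 without experiment 3 and 0.24 without experiment 2. Its other probe sets had means of -0.09, 0.05 and -0.03, and the mean over all its probe sets was 0.02. Perp, a p53 target in cell junctions, differed by 0.04 ± 0.10 (SE).

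The DNA repair genes had mean differences from 0.00 to 0.11. Xpc, which finds bulky lesions for nucleotide excision repair, read 6.71, 6.72 and 6.73 in irradiated cultures and 6.63, 6.65 and 6.88 in controls, with a mean difference of 0.00 ± 0.10 (SE). Ddb2, which recognises ultraviolet damage in the same route, read 6.25, 6.27 and 6.18 in irradiated cultures and 6.15, 5.96 and 6.35 in controls, a difference of 0.08 ± 0.12 (SE). Both groups overlapped for each gene. Ercc5, a nuclease that cuts beside the lesion, differed by 0.11 ± 0.10 (SE), and Polk, a polymerase that copies past damaged bases, by 0.07 ± 0.11 (SE). None of the 4 genes had 1 sign in all 3 experiments. On the brightest probe set of each gene the 95% intervals lay between -0.24 and 0.37. This bounds a difference on those probe sets at about that size and does not show that there was none. A second, dim probe set of Ddb2 differed by -0.27, with an interval from -0.74 to 0.19. That of Ercc5, also dim, differed by -0.14, with an interval from -0.64 to 0.37. The second probe set of Polk, which was not dim, differed by 0.12 ± 0.10 (SE).

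**Figure D4:**
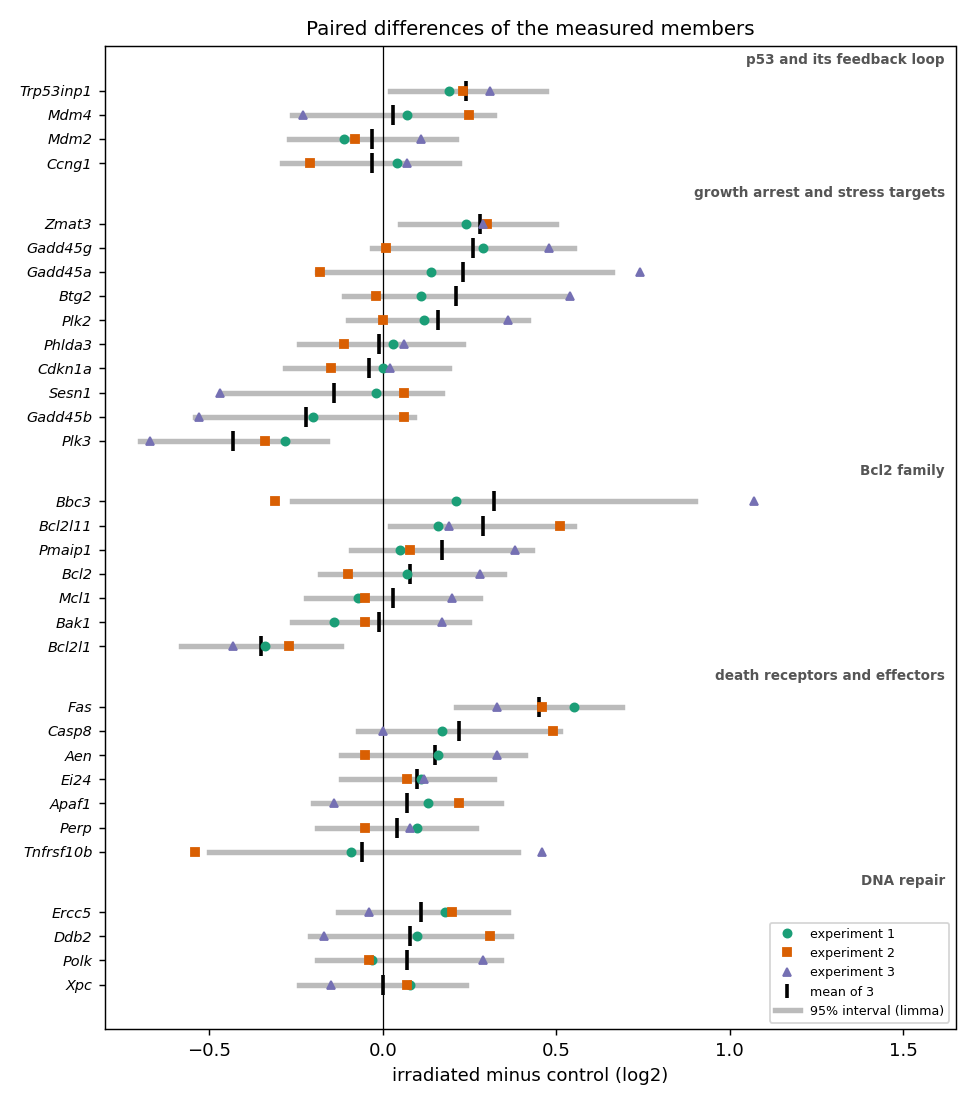
Paired log2 differences, irradiated minus control, of the 32 measured genes, ordered by role and within a role from the highest mean. Symbols are the 3 experiments, black ticks their mean and grey bars the 95% interval of the limma fit. The grey bar lies above 0 for Fas, Zmat3, Trp53inp1 and Bcl2l11, and below 0 for Plk3 and Bcl2l1.

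Differences were often widest in experiment 3, as the outlying symbols of Bbc3, Gadd45a, Gadd45b, Btg2 and Sesn1 show. The widest of the 3 differences was that of experiment 3 for 18 of the 31 genes above the dim level (58.1%), beside 45.8% of all genes there. The median size of the differences of the 31 genes was 0.12 in experiment 1, 0.11 in experiment 2 and 0.28 in experiment 3, beside 0.12, 0.13 and 0.17 for all genes above the dim level. Hybridisation controls, transcripts added to every sample before hybridisation, differed by 0.08, -0.03 and 0.50, irradiated minus control, in experiments 1, 2 and 3, and their part in these values was not tested. The 3 prime to 5 prime signal of control transcripts, a sign of RNA quality, differed by 0.00, -0.02 and 0.01 within the experiments.

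Levels of these genes were also compared between experiments. A range over 3 means tends to exceed a mean of 3 differences, so the count is read only beside that of all genes. For 27 of the 31 genes above the dim level (87.1%) the range of the 3 experiments' mean levels exceeded the irradiation difference, which held for 78.4% of all genes there. The median range was 0.33 over the 31 genes, beside 0.22 for all genes above the dim level. Experiment 1 gave the highest array of both groups for 16 of the 31 (51.6%), beside 32.9% of all genes there. Among them were Ccng1, Mdm2, Cdkn1a, Zmat3, Phlda3, Fas and Perp, while Bbc3, Btg2, Gadd45a, Sesn1 and Xpc, also p53 targets, were not. Members of the Bcl2 family mostly did not share this order, with 1 of 7, Pmaip1, highest in experiment 1, while Bcl2l1 was lowest there in both groups. The macrophage markers other than Itgam were also lowest in experiment 1 in both groups. The 3 prime to 5 prime signal was 0.19, 0.25 and 0.38 in the irradiated arrays of experiments 1, 2 and 3. In the control arrays it was 0.20, 0.27 and 0.38. The part of RNA quality or of the cell mix in the order of the experiments was not tested.

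**Figure D5:**
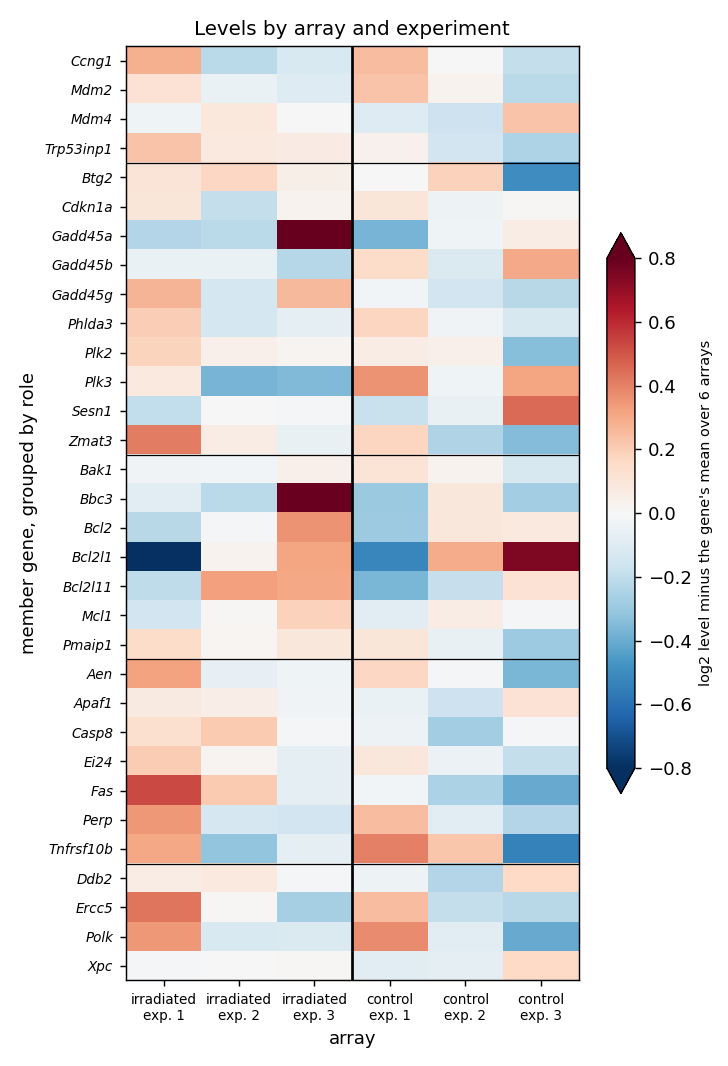
Log2 level of each measured gene on each array minus that gene's mean over the 6 arrays (colour, red higher and blue lower, clipped at the ends of the scale), with irradiated arrays left of the black line and controls right, and genes grouped by role. Ccng1, Zmat3, Perp, Ercc5 and Polk are red in experiment 1 of both groups, while Bcl2l1 is blue in experiment 1 of both.

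Other genes around the pathway were followed as lists. Of 16 regulators and relatives of p53, 14 were measured, 5 higher and 9 lower with a median of -0.06, and none passed the adjusted threshold. Of the 12 above the dim level 1 was higher and 3 were lower at an unadjusted p under 0.05, where 4.57% and 6.28% of all genes at that level were. These are few genes, and nothing is read from the list's count. Ppp1r13b, which encodes ASPP1, a cofactor that directs p53 to death genes, read 6.71, 6.97 and 7.17 in irradiated cultures, against 7.22, 7.54 and 7.98 in controls. All 3 irradiated arrays lay below all 3 control arrays, a difference of -0.63 ± 0.11 (SE; adjusted p = 0.504), 1.55-fold lower. Hipk2, a kinase that phosphorylates p53 after severe damage, read 10.61, 11.14 and 10.60 in irradiated cultures, against 11.12, 11.53 and 11.53 in controls. It was lower in each experiment, by -0.51, -0.39 and -0.93, a difference of -0.61 ± 0.13 (SE; adjusted p = 0.530). Trp53bp2, which encodes the related cofactor ASPP2, differed by -0.29 ± 0.12 (SE). Kat5, an acetyltransferase that modifies p53, differed by 0.39 ± 0.15 (SE), with 0.84 in experiment 3 and 0.19 and 0.15 in experiments 1 and 2.

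Of 15 further p53 targets 14 were measured, 6 higher and 8 lower with a median of 0.00. The 2 at an unadjusted p under 0.05 were Pml, the organiser of nuclear bodies, at 0.26 ± 0.11 (SE), and Zfp365 at 0.38 ± 0.15 (SE), where 4.57% of all genes above the dim level were higher. Zfp365 averaged 6.22 in irradiated and 5.85 in control cultures, so it reached the level of 6 through the irradiated cultures alone, and 2 of the 3 control arrays of Pml, at 5.84 and 5.96, lay under it. Nothing is read from these 2 genes. Of 25 other genes of the Bcl2 family, caspases and death receptor signalling 22 were measured, 12 higher and 10 lower with a median of 0.02. Cflar, an inhibitor of Casp8, read 8.52, 8.67 and 8.37 in irradiated cultures, against 8.67, 8.85 and 9.13 in controls. It was lower in each experiment, with a mean of -0.36 ± 0.14 (SE; adjusted p = 0.606) and a difference of -0.76 in experiment 3. Endog, a mitochondrial nuclease, differed by -0.30 ± 0.10 (SE).

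Upstream, of 19 genes of damage sensing and checkpoint signalling 18 were measured, 10 higher and 8 lower with a median of 0.02. None of the 10 above the dim level had an unadjusted p under 0.05, where 4.57% of all genes there were higher and 6.28% lower at that p. Among the dim genes Hus1, by 0.41 ± 0.14 (SE), and Mre11a, by 0.26 ± 0.10 (SE), were higher at that p, beside 674 of all 18193 genes. Nothing is read from them at their level. The checkpoint genes Rad1, a subunit of the clamp loaded at damaged DNA, and Topbp1, an activator of the kinase Atr, differed by -0.12 ± 0.17 (SE) and -0.13 ± 0.16 (SE). Of 22 repair genes 19 were measured, 11 higher and 7 lower, with a median of 0.03 and none at an unadjusted p under 0.05. Apex1, the endonuclease of base excision repair, differed by 0.19 ± 0.11 (SE) and Lig4, the ligase of end joining, by -0.26 ± 0.16 (SE). Of 12 replication and mitosis genes, which p21 acts to restrain, 11 were measured, 4 higher and 7 lower with a median of -0.09. The mitotic genes Bub1 and Cdc20 each had a mean of -0.24. The list's medians were -0.02, 0.11 and -0.38 in the 3 experiments, so experiment 2 went the other way.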

How the data were processed

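Gene expression came from an Affymetrix mouse array, run on 3 irradiated and 3 control cultures with 200 ng of RNA each. The authors' deposited table holds log2 expression per probe set, and RMA, affy and limma are the tools that the submitters' processing notes name. How background was handled, which arrays were normalized together, and any version or genome build are not given in the sources used. The 64 array control probe sets were not tested, which leaves 45037 probe sets, 34945 of them with 1 gene symbol in the platform annotation. Members and all gene lists were chosen with earlier results of these data known.

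Groups were compared by limma 3.58.1 under R 4.3.3 (lmFit, eBayes, two-sided, Benjamini-Hochberg over all probe sets), with the experiment as a block because the design text pairs each irradiated culture with its own control. Deviations from group means correlated at 0.787, 0.028 and 0.324 within the 3 pairs. The fit had 2 residual and 4.52 prior degrees of freedom and was tested on simulated data. With 6 arrays, array number sets the precision. Array values are given for members at a mean of at least 6 with an unadjusted p under 0.05 and for a set of core members. From the other lists, genes at that level and p are named, and up to 2 with the largest statistic. Other probe sets of members, and members' differences beyond these, were described after their values were seen. Alternatives covered the block, the normalization, dim probe sets, the prior, the summary of a gene's probe sets and each experiment left out. Promoter windows are from RefSeq. Figures used matplotlib 3.10.9.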

Additional observations from a re-analysis of the deposited data

Results flagged for a closer look

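Over 18 hybridisation control probe sets, used in no comparison above, the arrays of experiment 3 differed by 0.50 on the log2 scale, with a mean of 11.73 in the irradiated culture and 11.23 in its control, a signal outside the main measurement.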

How the results depend on the processing

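No gene of the list passed an adjusted p of 0.05 under any of 11 alternatives, and the lowest adjusted p of any was 0.246. Of all probe sets, 2 passed with the experiment as a random replicate block and 0 in every other alternative run on probe sets. Of the 32 genes, 6 had an unadjusted p under 0.05, against 2 with no replicate block 3 with a random replicate block, 4 with the mean of a gene's probe sets, and 2 to 4 with an experiment left out. Fas and Plk3 were the 2 left with no replicate block, so 4 of the 6 depend on the pairing. The precision rests on 3 pairs of arrays. The count of genes with 1 sign, 9 over 3 experiments, was 9 to 20 over 2 experiments, where fewer signs have to match. The median difference of 0.08 was 0.02 to 0.09 under the alternatives. Single values were counted as keeping their sign in 329 of 351 recomputations. Part of this count was fixed in advance. A changed block or prior, 1 probe set per gene and dim probe sets left out cannot alter a gene's difference here. In all of its recomputations the sign was kept by 15 genes, Fas, Zmat3, Trp53inp1, Plk3 and Bcl2l1 among them. Xpc is counted there too, although its difference of 0.00 had no sign to keep. Its values with an experiment left out were -0.04 to 0.07. With the mean of a gene's probe sets the sign turned for Apaf1 (-0.07), Bak1 (0.03), Bcl2l11 (-0.13), Ddb2 (-0.10), Ercc5 (-0.01) and Mdm2 (0.13), since probe sets of these genes differ in sign. Quantile normalization turned Bak1 (0.01). Leaving out an experiment turned Bak1 (-0.10 to 0.06), Bbc3 (-0.05 to 0.64), Bcl2 (-0.01 to 0.17), Ccng1 (-0.09 to 0.06), Cdkn1a (-0.07 to 0.01), Ddb2 (-0.04 to 0.20), Gadd45a (-0.02 to 0.44), Mcl1 (-0.06 to 0.07), Mdm2 (-0.10 to 0.01), Mdm4 (-0.08 to 0.16), Phlda3 (-0.04 to 0.04), Polk (-0.04 to 0.13), Sesn1 (-0.24 to 0.02) and Tnfrsf10b (-0.32 to 0.18), and the cause was not tested.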
